A study of Homo sapiens with 12 samples.

Results

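ATF4, DDIT3, DDIT4, TRIB3, CHAC1, ASNS, PSAT1, PHGDH, SLC7A11 and SESN2 make up a set of 10 genes of the ATF4 amino acid stress response, taken by gene symbol from a table of 25343 genes. All 10 were counted in every library and passed the filter on low counts, among 14199 genes tested. The study used 2 cancer lines that express Cas9, SW48 from the colon or rectum and OVK18 from the ovary, both known for microsatellite instability. Each line was transduced with sgCh2-2, a control guide against an intergenic site on chromosome 2, or with sgWRN2 or sgWRN3, guides against the gene of the WRN helicase, and was harvested 72 h later. RNA-seq was made from 2 libraries, A and B, for each of these 6 groups. All 6 groups carry Cas9 and a guide, so the control cells too had a guide with a genomic target. The labels do not say whether A and B came from separate cultures, and p-values measure only the spread between these libraries. As in any bulk RNA-seq, fewer cells of a type and less RNA per cell cannot be told apart.

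When amino acids run short or the endoplasmic reticulum is overloaded, kinases phosphorylate the translation factor eIF2; general protein synthesis then slows while the ATF4 mRNA is translated more. ATF4 protein binds, often with C/EBP partners, to short elements at genes for amino acid synthesis, amino acid uptake and the charging of transfer RNAs, and at regulators that later restrain the response. The amount of ATF4 protein is therefore controlled largely by translation, which mRNA levels do not measure.

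Below, levels of 1 gene are in CPM, and 2 values joined by "and" are libraries A and B. Libraries held between 15423162 and 32581625 counts. WRN levels in CPM (counts scaled to library size with TMM factors) in the SW48 libraries A and B were 91.2 and 112 for sgCh2-2, 37.2 and 34.1 for sgWRN2, and 42.3 and 56.9 for sgWRN3, so the 4 libraries with a WRN guide lay below both controls. In OVK18 they were 32.0 and 39.8, 22.0 and 21.0, and 22.2 and 23.0, again with no overlap. The log2 difference of WRN from sgCh2-2 was called with sgWRN2 in SW48 (-1.51, adjusted p 0.000461). It was not called with sgWRN3 in SW48 (-1.03, adjusted p 0.438), with sgWRN2 in OVK18 (-0.74, adjusted p 0.0658) or with sgWRN3 in OVK18 (-0.67, adjusted p 1). A gene is called here when its Benjamini-Hochberg adjusted p in edgeR's quasi-likelihood test, over all genes tested, is under 0.05. Of 7 intestinal epithelial genes, 6 were above 1 CPM in SW48 (summed 212 to 254 CPM) and 0 in OVK18. Of 7 Mullerian and ovarian genes, 3 were above 1 CPM in SW48, led by MSLN (summed 55.1 to 69.8 CPM). In OVK18 only HOXA11 was (summed 38.4 to 46.7 CPM), so this list was not higher in the line from the ovary. Of 6 fibroblast genes, 3 were above 1 CPM in OVK18, led by COL3A1 (summed 407 to 479 CPM), and 0 in SW48. Of 7 leukocyte and endothelial genes, 2 were above 1 CPM in SW48 (summed 10.6 to 14.1 CPM) and 1 in OVK18 (summed 4 to 6.21 CPM), with CD68 the highest in both lines and CD3E and PECAM1 at 0.

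Libraries A and B of a group differed in several of the 10 genes, and did so in another direction in the sgWRN2 groups. Across 10769 genes, the A-minus-B differences of the 4 groups with sgCh2-2 or sgWRN3 were alike (Pearson r 0.64 to 0.707 over 6 pairs of groups), those of the 2 sgWRN2 groups were alike (r 0.666), and the 8 pairs of one with the other were inverse (r -0.66 to -0.231). CHAC1 showed this with the largest differences of the 10, from few counts (20 to 101 a library in SW48, 68 to 171 in OVK18). It was higher in A in all 4 groups with sgCh2-2 or sgWRN3, by 0.575 to 0.997 on the log2 scale, and lower in A in both sgWRN2 groups. TRIB3 and SESN2 had the same arrangement, with A above B by 0.265 to 0.558 and by 0.226 to 0.633 in the 4 groups and below B in both sgWRN2 groups. SLC7A11 was the other way round, lower in A in the 4 groups and higher in A with sgWRN2 in both lines. ASNS varied little, with A minus B between -0.07 and 0.15 in the 4 groups. In OVK18, 9 of the 10 genes were higher in A with sgCh2-2, 8 with sgWRN3 and 3 with sgWRN2, while 48.4% to 49.2% of all genes tested were higher in A in these groups. In SW48 the counts were 6, 6 and 5 of 10 in the same order of guides, beside 50.4%, 45.4% and 50.1% of all genes tested. What the letters stand for is not in the labels. Fits with the letters as a block moved the counts of calls, and exchanging the sgWRN2 letters in that block raised them, in OVK18 with sgWRN2 too; the counts stand with the other alternatives in the closing section. Differences within each letter are given beside the results and can be read as pairs only if a letter means the same in the sgWRN2 groups as in the others, which the labels do not say.

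**Figure D1:**
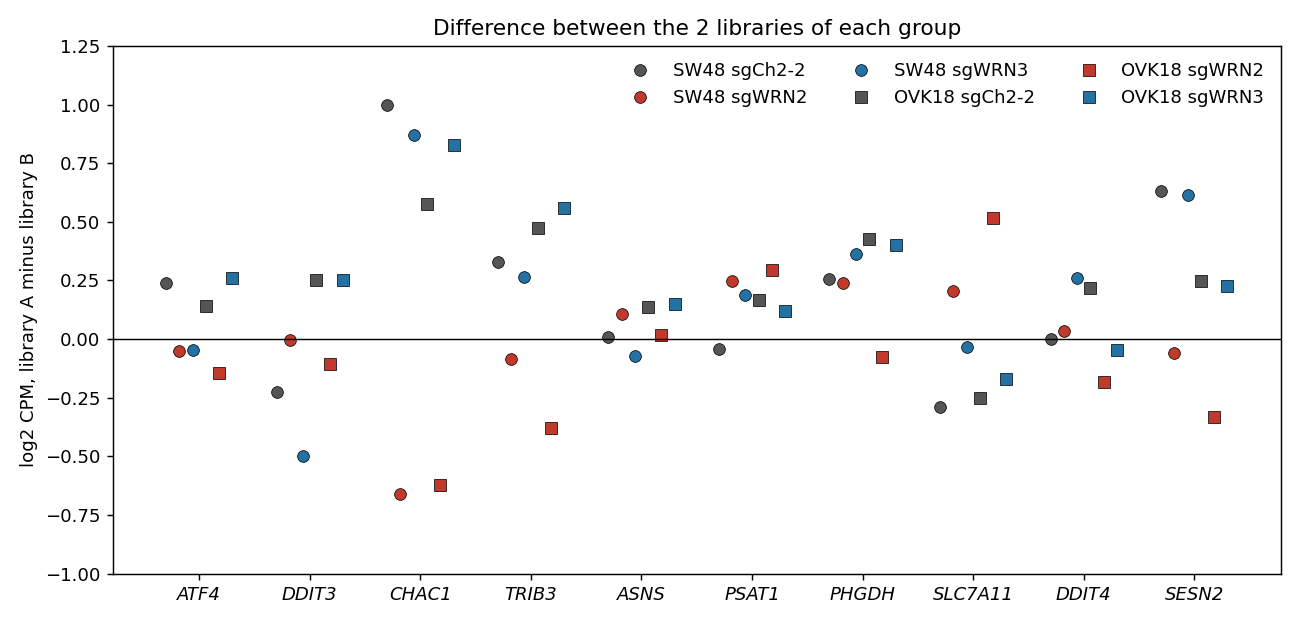
Log2 CPM of library A minus that of library B (vertical axis) for each of the 10 genes (horizontal axis) in the 6 groups, with SW48 as circles, OVK18 as squares and colours for the guides. CHAC1, TRIB3 and SESN2 lie above 0 in all 4 groups with sgCh2-2 or sgWRN3 and below 0 in both sgWRN2 groups.

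With the control guide, the order of the genes per length was led by the same 3 genes in both lines. Levels between genes are compared in FPKM, fragments scaled to transcript length and library size, from the authors' second table. In SW48, ATF4 stood at 111 ± 16.7 FPKM (SD, n = 2) and PSAT1, a transaminase of serine synthesis, at 98.3 ± 1.22. The ATF4 libraries, 123 and 99.7 FPKM, lay above those of PSAT1, at 99.2 and 97.4, and the gap between the means was smaller than the SD of ATF4. ASNS, which makes asparagine from aspartate, followed at 66.8 ± 0.818 FPKM. PHGDH, the first enzyme of serine synthesis, had 18.3 ± 3.21 FPKM, and DDIT3, DDIT4, TRIB3, SESN2 and SLC7A11 lay between 11.997 and 4.87. Of these neighbours, TRIB3 (7.89 ± 1.53) and SESN2 (5.19 ± 1.75) had libraries that did not overlap, while the SESN2 libraries spanned those of SLC7A11. CHAC1, an enzyme that breaks down glutathione, was lowest at 1.35 ± 0.737 FPKM, from 101 and 30 counts.

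The order of the genes in OVK18 differed from that in SW48 below these first 3 genes. ATF4, PSAT1 and ASNS stood at 169 ± 16.1, 105 ± 10.9 and 77.8 ± 7.21 FPKM. DDIT4 came next at 39.2 ± 5.40 FPKM, with both libraries above those of PHGDH (28.3 ± 6.43), whose range overlapped that of DDIT3 (24.9 ± 4.003). SESN2, TRIB3 and CHAC1 followed at 14.7 ± 2.15, 4.27 ± 1.08 and 3.08 ± 0.930 FPKM, and the TRIB3 and CHAC1 libraries overlapped. SLC7A11, the transporter that brings in cystine in exchange for glutamate, was last at 0.292 ± 0.0228 FPKM.

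**Figure D2:**
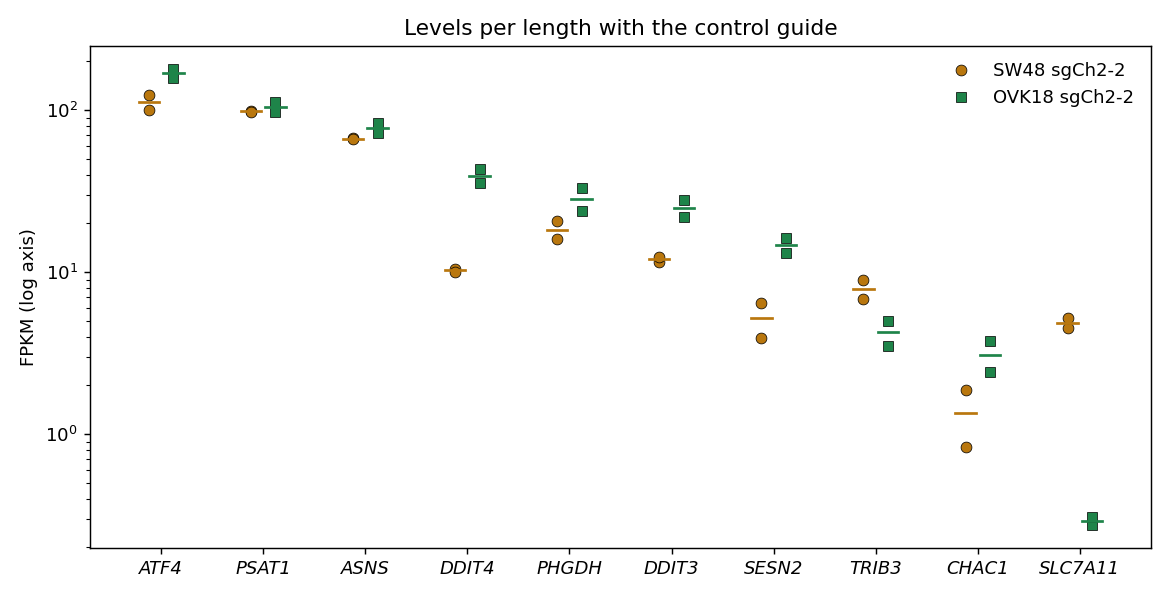
FPKM on a log axis for the 10 genes in the sgCh2-2 libraries of SW48 (circles) and OVK18 (squares), ordered by the OVK18 mean; points are the 2 libraries and lines their mean. The lines are close for PSAT1 and ASNS, apart for ATF4 (111 against 169 FPKM) and far apart for SLC7A11 (4.87 against 0.292 FPKM).

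Tested on counts, 9 of the 10 genes were called between the lines, where 68.6% of all genes tested were called in either direction. Of the 9, 2 were higher in SW48. SLC7A11 was at 54.7 and 67.0 CPM in SW48 and 3.38 and 4.02 in OVK18, a log2 difference of 4.03 (SE 0.18, adjusted p 8.03e-10). SLC3A2, the heavy chain that carries SLC7A11 and other transporters to the membrane, was also higher, at 339 and 264 against 52.6 and 41.6 CPM (log2 difference 2.68, adjusted p 9.07e-08). TRIB3, a pseudokinase that binds ATF4 and AKT, was at 25.5 and 20.3 CPM in SW48 and 14.6 and 10.5 in OVK18, 0.88 higher on the log2 scale (adjusted p 0.00365).

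The other 7 genes called between the lines were lower in SW48. DDIT4, an inhibitor of mTORC1, was at 20.6 in both SW48 libraries and 86.5 and 74.4 CPM in OVK18 (log2 difference -1.96, SE 0.13, adjusted p 2.51e-08). SESN2, which reports leucine to mTORC1, was at 27.5 and 17.7 against 71.6 and 60.3 CPM (-1.53, adjusted p 5.81e-05). No library of one line reached the other for either gene. DDIT3, also known as CHOP, had a log2 difference of -1.04 (adjusted p 0.000187), and those of CHAC1, PHGDH, ATF4 and ASNS were -1.14, -0.72, -0.62 and -0.23. PSAT1 was not called (-0.14, adjusted p 0.351). The ASNS call (adjusted p 0.0444) was lost in 10 of 22 alternatives, where the adjusted p reached 0.209. That of CHAC1 was lost in 4 of 21, among them without SW48 sgCh2-2 B and without OVK18 sgCh2-2 A, that of PHGDH in 4 of 22, among them without OVK18 sgCh2-2 A, and that of TRIB3 without OVK18 sgCh2-2 B (adjusted p up to 0.144, 0.0844 and 0.0549).

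With sgWRN2 in SW48, ASNS and PHGDH fell, 2 of the 10 genes, where 3.08% of all genes tested were called in either direction. None of the 10 was called higher. The median log2 difference of the 10 was -0.21, beside 0.02 over all genes tested, and 4 of 10 were lower in both sgWRN2 libraries than in both controls (ASNS, PHGDH, PSAT1 and TRIB3), against 17.2% of all genes, and 2 of 10 higher (DDIT4 and SESN2), against 21.6%. With sgWRN3 in SW48, 0 of 10 were called, where 0% of all genes were called by edgeR. Here 2 of 10 and 262 of 14199 genes had an unadjusted p under 0.05. DESeq2 called 1 of the 10, ASNS. Exchanged letters aside, the alternatives, DESeq2 among them, called 0 to 22 of all genes. The median was -0.22 beside -0.000273 over all genes, and 4 of 10 were lower without overlap (ASNS, PHGDH, PSAT1 and SLC7A11), against 10.6% of all genes. These comparisons share their control libraries.

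**Figure D3:**
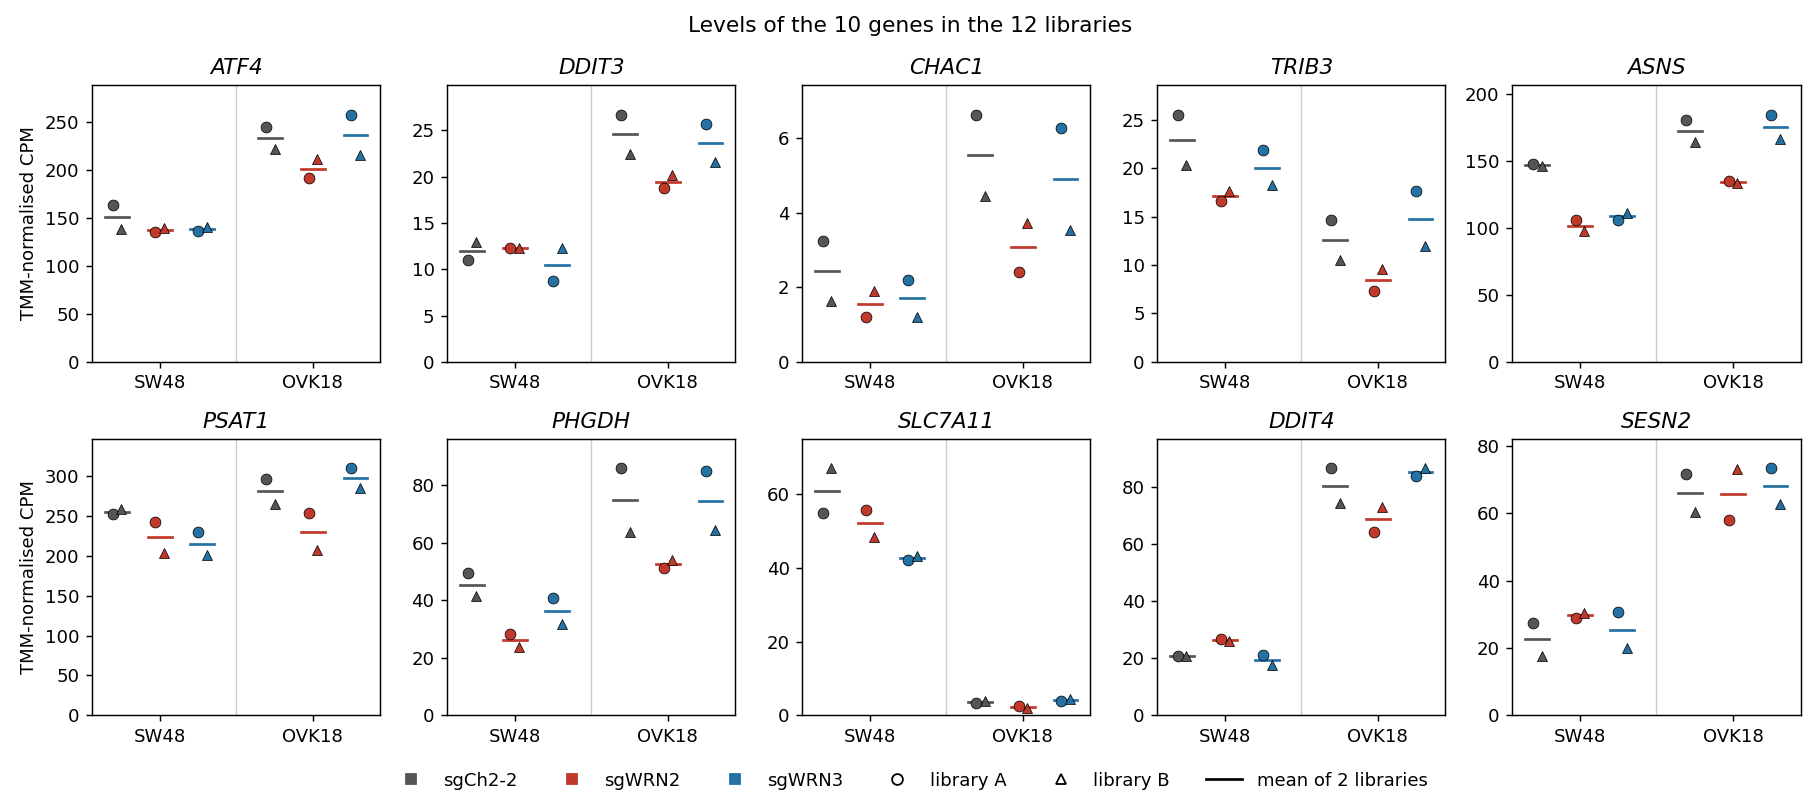
TMM-normalised CPM (vertical axis, from 0) of each of the 10 genes in the 12 libraries, with library A as a circle, B as a triangle, colours for the guides and a line at the mean of 2 libraries. ASNS is near 147 CPM in both SW48 control libraries and between 97.9 and 111 CPM in the 4 SW48 libraries with a WRN guide.

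ASNS had the smallest standard errors of the 10 genes in SW48. It was at 147 CPM in both control libraries (147.42 and 146.52), at 106 and 97.9 with sgWRN2 and at 106 and 111 with sgWRN3. All 4 libraries with a WRN guide lay below both controls, and the guides lay close to each other. With sgWRN2 it fell by 0.53 on the log2 scale (SE 0.095), 0.692 times the control level (adjusted p 0.00882). With sgWRN3 the log2 difference was -0.43 (SE 0.095, adjusted p 1), with no call in a comparison where no gene was called. For both WRN guides together against the control ASNS fell by 0.48 (SE 0.081, adjusted p 0.0175), the 1 call among the 10 genes where 0.866% of all genes were called; 3 of 10 were lower in all 4 libraries than in both controls, against 5.33% of all genes. Within letter A the log2 difference for both guides was -0.48 and within letter B -0.49.

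The sgWRN2 call of ASNS held in 22 of 23 alternatives and was lost without SW48 sgWRN2 B (adjusted p 0.0968). The call for both guides together held in 16 of 23. It was lost without SW48 sgCh2-2 A or B, without SW48 sgWRN2 A or B, without SW48 sgWRN3 A, in a fit of the SW48 libraries alone and with the letters as a block (adjusted p up to 0.156).

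PHGDH was at 49.4 and 41.3 CPM in the SW48 controls, 28.2 and 23.9 with sgWRN2 and 40.7 and 31.7 with sgWRN3. The sgWRN2 libraries were the lowest 2, and those with sgWRN3 lay between them and the controls without reaching either group. With sgWRN2, PHGDH fell by 0.80 on the log2 scale (SE 0.19), 0.574 times the control level (adjusted p 0.0418), and the difference was -0.81 within letter A and -0.79 within letter B. With sgWRN3 the log2 difference was -0.33 (SE 0.19, adjusted p 1). The sgWRN2 call held in 16 of 23 alternatives and was lost without any 1 of the 4 libraries compared, SW48 sgCh2-2 A, SW48 sgCh2-2 B, SW48 sgWRN2 A and SW48 sgWRN2 B, and in limma on FPKM (adjusted p up to 0.304).

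Serine synthesis takes 3-phosphoglycerate through PHGDH, PSAT1 and PSPH. PSAT1 was at 252 and 259 CPM in the SW48 controls, 242 and 204 with sgWRN2 and 230 and 201 with sgWRN3. All 4 WRN-guide libraries were below both controls, but the log2 differences, -0.20 (SE 0.13, adjusted p 0.593) and -0.25 (SE 0.13, adjusted p 1), were not called. PSPH, the last enzyme, had overlapping libraries in SW48 with either guide (log2 differences -0.04 and -0.16). Among the 12 other tested genes of serine, glycine and one-carbon metabolism, whose median log2 difference with sgWRN2 in SW48 was -0.17, TYMS fell. This enzyme makes thymidylate, and it was at 165 and 172 CPM with the control guide and 117 and 111 with sgWRN2 (log2 difference -0.57, adjusted p 0.00457).

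The windows just before the start sites of ASNS and PHGDH, which fell, and of CHAC1, which holds a motif match, are printed below with the 8-base motif TGATGNAA, a form of the C/EBP-ATF response element, in capitals where it occurs. They are the 250 bases before the annotated start, 5′ to 3′ on the gene's strand, from RefSeq on GRCh38.p14, which is not the build of the counts (hg19).
ASNS (chr7:97872409-97872658, minus strand): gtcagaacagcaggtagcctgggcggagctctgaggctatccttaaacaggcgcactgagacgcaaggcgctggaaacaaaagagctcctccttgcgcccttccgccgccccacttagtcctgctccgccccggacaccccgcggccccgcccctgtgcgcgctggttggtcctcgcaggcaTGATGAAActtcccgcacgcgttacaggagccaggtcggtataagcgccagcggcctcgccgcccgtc
PHGDH (chr1:119711684-119711933, plus strand): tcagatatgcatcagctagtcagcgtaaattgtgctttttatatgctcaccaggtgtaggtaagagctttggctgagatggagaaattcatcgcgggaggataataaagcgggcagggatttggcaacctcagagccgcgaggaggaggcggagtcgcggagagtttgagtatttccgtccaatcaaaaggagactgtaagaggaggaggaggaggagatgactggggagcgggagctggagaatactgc
CHAC1 (chr15:40953221-40953470, plus strand): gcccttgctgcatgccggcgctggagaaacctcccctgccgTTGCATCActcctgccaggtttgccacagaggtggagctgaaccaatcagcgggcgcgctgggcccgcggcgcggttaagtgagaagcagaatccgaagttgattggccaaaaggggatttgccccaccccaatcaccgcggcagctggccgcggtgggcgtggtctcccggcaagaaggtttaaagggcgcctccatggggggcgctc
The motif was searched on both strands in windows from 250 bases before to 50 after each start. It was found as TGATGAAA 68 bases before the start of ASNS on the strand of the gene, and as TTGCATCA, its reverse complement, 209 bases before the start of CHAC1. The table has a further window for ASNS, from another start, and it held no match. These were 2 of the 9 genes, and 2 of their 14 windows, in the table, where 4.46% of 27305 genes and 3.62% of 35116 windows of this length held a match. A match is a run of letters and no measure of ATF4 binding, and the windows of the other 7 genes, PHGDH among them, held none.

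ATF4 itself was not called with a WRN guide in either line. In SW48 it was at 163 and 138 CPM for sgCh2-2, 135 and 140 for sgWRN2 and 137 and 141 for sgWRN3, and the WRN-guide libraries overlapped the lower control. The log2 differences were -0.14 (SE 0.12) and -0.12 (SE 0.12). DDIT3, a factor that ATF4 induces under long stress, was at 11.1 and 12.9 CPM in the SW48 controls, 12.3 in both sgWRN2 libraries and 8.71 and 12.3 with sgWRN3. Its groups overlapped, with log2 differences of 0.04 (SE 0.18) and -0.18 (SE 0.18). RefSeq places the ends of DDIT3 and MARS1 on top of each other on opposite strands, and the strand setting of the counts is not given in the sources used here. Pseudogenes of ATF4 and of PSAT1 are annotated as well, and how shared reads were counted is not given either.

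TRIB3 and CHAC1, which are ATF4 targets that rise strongly under stress, were not called in SW48. TRIB3 was at 25.5 and 20.3 CPM for sgCh2-2, 16.6 and 17.7 for sgWRN2 and 21.9 and 18.2 for sgWRN3. Both sgWRN2 libraries and sgWRN3 B lay below both controls (log2 difference for sgWRN2 -0.42, SE 0.22, adjusted p 0.47). CHAC1 was at 3.24 and 1.62 CPM for sgCh2-2, 1.21 and 1.91 for sgWRN2 and 2.21 and 1.21 for sgWRN3. These values overlapped, rest on 20 to 101 counts a library, and had a log2 difference for sgWRN2 of -0.69 (SE 0.47) that was -1.42 within letter A and 0.24 within letter B. CHAC2, its constitutive relative, also had overlapping libraries (log2 difference -0.30, SE 0.30).

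SLC7A11 in SW48 was at 54.7 and 67.0 CPM for sgCh2-2, 55.7 and 48.3 for sgWRN2 and 42.2 and 43.2 for sgWRN3. The sgWRN3 libraries lay below both controls, with a log2 difference of -0.51 (SE 0.15, adjusted p 1), and the sgWRN2 libraries overlapped them (-0.22, SE 0.15, adjusted p 0.618). Within the letters the sgWRN2 difference was 0.03 in A and -0.47 in B. SLC3A2 overlapped with both guides (log2 differences -0.19 and -0.14).

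DDIT4 and SESN2, which restrain mTORC1, are known targets of p53 as well as of ATF4. In SW48 DDIT4 was at 20.6 CPM in both controls, 26.7 and 26.0 with sgWRN2 and 21.3 and 17.8 with sgWRN3. The sgWRN2 libraries were above all the others, with a log2 difference of 0.35 (SE 0.13, adjusted p 0.22) that was 0.37 within letter A and 0.33 within letter B. SESN2 was at 27.5 and 17.7 CPM for sgCh2-2, 29.05 and 30.3 for sgWRN2 and 30.7 and 20.1 for sgWRN3, with log2 differences of 0.38 (SE 0.23, adjusted p 0.548) and 0.16 (SE 0.23, adjusted p 1). Its sgWRN2 libraries lay above both controls, but the difference was 0.08 within letter A and 0.77 within letter B. SESN1, a relative known as a p53 target, rose with sgWRN2, from 37.5 and 40.2 CPM to 60.8 and 58.0 (log2 difference 0.61, adjusted p 0.0197).

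Targets of p53 were a separate list, chosen with their response in these libraries known. Of its 19 tested genes outside the 10, 10 rose and 0 fell with sgWRN2 in SW48, with a median log2 difference of 0.61. They were CDKN1A, BTG2, PLK2, GDF15, TP53INP1, MDM2, XPC, FAS, SESN1 and BBC3. Over all 14199 genes tested, 160 were called higher and 277 lower, with a median of 0.02. CDKN1A, the cell cycle inhibitor p21, went from 412 and 326 to 945 and 1008 CPM (log2 difference 1.40, adjusted p 0.00035). With sgWRN3 0 of 19 were called, while all 19 differences were above 0 (median 0.32). An unadjusted p under 0.05 was reached by 9 of the 19 and by 262 of 14199 genes. For both guides together 7 of 19 rose, where 36 of 14199 genes were called higher.

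**Figure D4:**
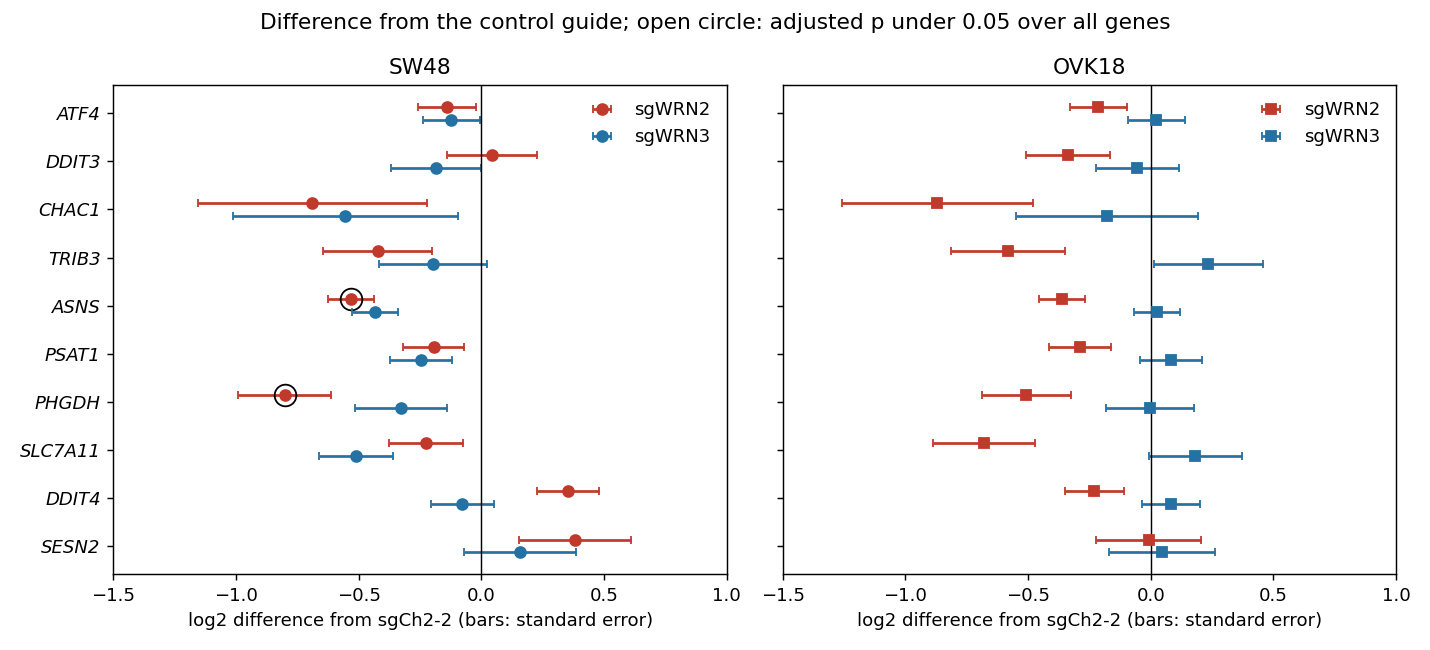
Log2 difference from sgCh2-2 (horizontal axis, bars are standard errors) for the 10 genes with sgWRN2 (red) and sgWRN3 (blue) in SW48 (left) and OVK18 (right); open circles mark adjusted p under 0.05. Only ASNS and PHGDH with sgWRN2 in SW48 are marked, and in OVK18 the sgWRN2 points lie to the left of those for sgWRN3 for all 10 genes.

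In OVK18 none of the 10 genes was called with sgWRN2, although nearly all were lower. By edgeR 0 of 10 were called, where 0.796% of all genes tested were called. An unadjusted p under 0.05 was reached by 6 of the 10 and by 1974 of 14199 genes. DESeq2 called 1 of the 10, ASNS. Exchanged letters aside, the alternatives, DESeq2 among them, called 18 to 439 of all genes. Of the 10 genes 9 had both sgWRN2 libraries below both controls, against 21.4% of all genes; SESN2 was the exception. All 10 log2 differences were below 0, between -0.87 and -0.01, with a median of -0.35 beside -0.00155 over all genes. All 10 were below 0 in 5 of the 23 alternatives; in the others, among them every other scaling, SESN2 was above 0, and in 1 of them CHAC1 did not pass the filter. With sgWRN3 0 of 10 were called by edgeR or DESeq2, where 0% of all genes were called by edgeR. Of the 10, 0 had an unadjusted p under 0.05 (116 of all genes had), and the median was 0.04. With sgWRN3, 0 of 10 were lower without overlap, against 10.5% of all genes.

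ASNS was again the gene with the smallest standard error. It was at 181 and 164 CPM for sgCh2-2 in OVK18, 135 and 133 for sgWRN2 and 185 and 167 for sgWRN3. The sgWRN2 libraries stood apart from all the others, with a log2 difference of -0.36 (SE 0.094, adjusted p 0.114) that was -0.42 within letter A and -0.30 within letter B. With sgWRN3 it was 0.03 (SE 0.094). PHGDH was at 85.9 and 63.8 CPM for sgCh2-2, 51.3 and 54.1 for sgWRN2 and 84.9 and 64.4 for sgWRN3. Both sgWRN2 libraries lay below the other 4. The log2 difference with sgWRN2 was -0.51 (SE 0.18, adjusted p 0.235), -0.74 within letter A and -0.24 within letter B.

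PSAT1 in OVK18 was at 297 and 265 CPM for sgCh2-2, 253 and 207 for sgWRN2 and 310 and 285 for sgWRN3. Here too the sgWRN2 libraries were below the other 4, with a log2 difference of -0.29 (SE 0.13, adjusted p 0.334). MTHFD2, the mitochondrial one-carbon enzyme and a known ATF4 target, fell from 258 and 243 to 184 and 146 CPM with sgWRN2 (log2 difference -0.60, adjusted p 0.0476). It was the 1 gene called among the 12 others of the serine and one-carbon list, whose median was -0.19. With sgWRN3 MTHFD2 was at 268 and 260 CPM, above both controls, and was not called.

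ATF4 in OVK18 was at 244 and 221 CPM for sgCh2-2, 191 and 211 for sgWRN2 and 257 and 215 for sgWRN3. Both sgWRN2 libraries were below the other 4, with a log2 difference from sgCh2-2 of -0.21 (SE 0.12, adjusted p 0.456), -0.36 within letter A and -0.07 within letter B. DDIT3 was at 26.7 and 22.4, 18.8 and 20.2, and 25.7 and 21.6 CPM in the same order, with a log2 difference of -0.34 (SE 0.17, adjusted p 0.42). TRIB3 was at 14.6 and 10.5 CPM for sgCh2-2, 7.33 and 9.54 for sgWRN2 and 17.6 and 11.9 for sgWRN3. The sgWRN2 libraries of both genes lay below the other 4. For TRIB3 the difference with sgWRN2, -0.58 (SE 0.23, adjusted p 0.289), was -0.995 within letter A and -0.14 within letter B. TRIB1, a relative of TRIB3, rose with sgWRN2, from 33.5 and 30.6 to 51.8 and 50.4 CPM (log2 difference 0.67, adjusted p 0.0143). It was the 1 gene called among the 15 tested relatives of the 10 genes.

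CHAC1 in OVK18 was at 6.64 and 4.46 CPM for sgCh2-2, 2.42 and 3.73 for sgWRN2 and 6.27 and 3.53 for sgWRN3. The sgWRN2 libraries lay below both controls and overlapped those of sgWRN3. The log2 difference with sgWRN2 was -0.87 (SE 0.39, adjusted p 0.345), -1.46 within letter A and -0.26 within letter B. SLC7A11 was at 3.38 and 4.02 CPM for sgCh2-2, 2.66 and 1.86 for sgWRN2 and 3.96 and 4.46 for sgWRN3, from 34 to 130 counts a library. The sgWRN2 libraries lay below the other 4. The difference with sgWRN2 was -0.68 (SE 0.21, adjusted p 0.171), here -0.34 within letter A and -1.11 within letter B. The difference was thus larger within letter A for CHAC1 and within letter B for SLC7A11.

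DDIT4 in OVK18 was at 86.5 and 74.4 CPM for sgCh2-2, 64.2 and 73.0 for sgWRN2 and 83.7 and 86.5 for sgWRN3. Its sgWRN2 libraries lay below the other 4, and the log2 difference with sgWRN2, -0.23 (SE 0.12, adjusted p 0.43), was opposite in sign to that in SW48. SESN2 was at 71.6 and 60.3, 58.1 and 73.1, and 73.4 and 62.7 CPM in the same order, and its groups overlapped with both guides (log2 differences -0.01 and 0.05, SE 0.22 each). Of the 19 p53 targets outside the 10 genes, 1 rose with sgWRN2 in OVK18, where 76 of 14199 genes were called higher. It was PLK2, from 6.06 and 6.59 to 13 and 12.6 CPM (log2 difference 1.02, adjusted p 0.00174). The median log2 difference of the 19 was 0.21, with 14 above 0 and 5 below. Called with sgWRN3 were 0 of 19, with a median of 0.05, 18 above 0 and 1 below.

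For both WRN guides together in OVK18, 0 of 10 were called by edgeR or DESeq2, where 0.0282% of all genes were called by edgeR. Of the 10, 0 had an unadjusted p under 0.05 (573 of all genes had). Lower without overlap were 0 of 10, against 3.84% of all genes. The guides were also compared directly. In OVK18, 0 of 10 differed between sgWRN2 and sgWRN3 by edgeR, where 0.747% of all genes did. Of the 10, 6 had an unadjusted p under 0.05 (2059 of all genes had), and DESeq2 called 3. Exchanged letters aside, the alternatives, DESeq2 among them, called 11 to 530 of all genes. All 10 were lower with sgWRN2 (in 20 of 23 alternatives), with a median log2 difference of -0.38, and 8 of 10 had libraries without overlap, against 21.7% of all genes. SLC7A11 (-0.86, adjusted p 0.0854), ASNS (-0.39, adjusted p 0.0888) and TRIB3 (-0.82, adjusted p 0.133) had the lowest adjusted p. In SW48, 0 of 10 differed between the guides by edgeR or DESeq2, where 0.944% of all genes did by edgeR. Of the 10, 2 had an unadjusted p under 0.05 (1221 of all genes had). With sgWRN2 3 of 10 were lower without overlap, against 13.9% of all genes, and 2 of 10, DDIT4 and SLC7A11, were higher, against 18.8%; the median was 0.02.

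Whether an effect differed between the lines was tested as an interaction. For sgWRN2 0 of 10 were called by edgeR or DESeq2, where 0.303% of all genes were called by edgeR. Of the 10, DDIT4 alone had an unadjusted p under 0.05, as had 889 of 14199 genes. The effect on DDIT4 was 0.58 higher in SW48 than in OVK18 on the log2 scale (SE 0.17, adjusted p 0.362). For sgWRN3 0 of 10 were called by either tool, where 0% of all genes were called by edgeR. Here 152 of 14199 genes had an unadjusted p under 0.05, and so had 2 of the 10. These were ASNS (-0.46, SE 0.13, adjusted p 1) and SLC7A11 (-0.69, SE 0.24, adjusted p 1), whose log2 differences with sgWRN3 were -0.43 and -0.51 in SW48 and 0.03 and 0.18 in OVK18. ASNS and PHGDH, called with sgWRN2 in SW48 and not in OVK18, were not shown to differ between the lines: their interaction for sgWRN2 was -0.17 (SE 0.13, adjusted p 0.954) for ASNS and -0.30 (SE 0.26, adjusted p 0.974) for PHGDH.

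Other ATF4 and amino acid response targets gave few calls. Of 46 tested, CBS and GDF15 rose and CEBPG fell with sgWRN2 in SW48, with a median log2 difference of -0.04. GDF15, a secreted stress factor that p53 also induces, went from 36.4 and 28.5 to 83.7 and 101 CPM (log2 difference 1.51, adjusted p 0.0018). CEBPG, a partner with which ATF4 binds DNA, went from 85.0 and 102 to 63.5 and 54.0 CPM (-0.67, adjusted p 0.0244). In OVK18 with sgWRN2, MTHFD2 and STC2 fell and 0 rose, with a median of -0.16 and 36 of 46 below 0. STC2, a secreted glycoprotein, went from 39.2 and 34.4 to 23.2 and 21.9 CPM (-0.70, adjusted p 0.0492). With sgWRN3 0 of 46 were called in either line, at medians of -0.08 in SW48 and 0.03 in OVK18.

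The genes upstream and beside ATF4 were as sparse in calls. Of 20 genes for eIF2, its kinases, eIF2B and the phosphatase, 0 were called with either guide in either line against sgCh2-2. With sgWRN2, 2 of the 20 had an unadjusted p under 0.05 in SW48 and 4 in OVK18. Over all 14199 genes tested, 1865 had in SW48 and 1974 in OVK18. Of 20 endoplasmic reticulum chaperone and unfolded protein response genes, listed apart from the ATF4 targets above, 1 fell with sgWRN2 in OVK18. It was HERPUD1, a gene of protein degradation at that membrane (from 84.7 and 64.2 to 38.0 and 36.2 CPM, log2 difference -1.003, adjusted p 0.00991). Whether ATF4 acts on HERPUD1 or other genes of this list was not tested. Between the guides in OVK18, 7 of 20 were called lower with sgWRN2 than with sgWRN3: HERPUD1, MANF, HSPA5, CRELD2, XBP1, DNAJC3 and DNAJB11. Of all 14199 genes tested, 44 were called lower in this comparison. HSPA5, the main chaperone of that compartment, was at 928 and 841 CPM with sgWRN2 and 1932 and 1436 with sgWRN3 (log2 difference -0.93, adjusted p 0.0165). The list's median was -0.37 with sgWRN2 and 0.24 with sgWRN3 against sgCh2-2 in OVK18, and 0.13 and 0.01 in SW48. Of 23 other genes of mTORC1 and amino acid sensing, SESN1 alone was called with a WRN guide, and of 22 other genes of cystine, glutathione and NRF2, CBS alone.

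Over the 12 libraries, with each line set to its own mean, the 10 genes varied partly together. Of 45 pairs, 19 had a Pearson r above 0.5 and 6 below 0, with a median of 0.45. ATF4 was closest to TRIB3 (r 0.92), CHAC1 (0.87) and PHGDH (0.75) and farthest from DDIT4 and SESN2 (0.26 each). SESN2 stood apart, with a median r of -0.03 with the other genes. By the same measure over 11930 genes, the 5 nearest to ATF4 were C1orf233 (r 0.97), KLF2, SLC29A2, MYT1 and AARS (0.92). The 5 nearest to the mean of the 10 genes were AARS (0.94), AMIGO3, LSM14B, PACSIN2 and HCFC1R1. AARS, the synthetase that charges alanine transfer RNA, was at 311 and 249 CPM for sgCh2-2 in OVK18, 212 and 230 for sgWRN2 and 338 and 263 for sgWRN3. It had A above B in the groups other than sgWRN2, as ATF4 had in 3 of those 4. These correlations describe 12 libraries that share lines, guides and letters, and the letter differences above enter all of them.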

How the data were processed

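RNA was measured in 12 libraries, 6 groups of 2, from samples mapped by their labels. The authors deposited raw counts per gene, made with STAR 2.5 on hg19 after bcl2fastq 2.18, and a second table read here as FPKM because counts divided by it increase with length. These tools and Cufflinks 2.2.1 are named per the submitters' processing notes. The annotation and strand setting are not given in the sources used here. The 92 spike-in rows held 0 counts and were left out.

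Counts were fitted in R 4.3.3 with edgeR 4.0.16 (TMM, filterByExpr, robust quasi-likelihood, 6 groups, 6 residual degrees of freedom, Benjamini-Hochberg over 14199 genes, threshold 0.05). The 11 comparisons are contrasts of that fit. The standard error of a log2 difference is the difference over the square root of F. CPM use TMM factors. Libraries were called without overlap when all values of one group lay below all of the other. A-minus-B correlations used log2(CPM + 0.5) for genes with a mean of at least 5 CPM. Likeness used logCPM with a prior count of 2, centred by line, for genes with a mean logCPM of at least 1. Alternatives were RLE scaling, library size alone, other filters, DESeq2 1.42.0, limma 3.58.1 on log2(FPKM + 1) or log2(FPKM + 0.1), the libraries of 1 line, a replicate block and leaving out each library. The scripts were tested on simulated counts. Groups of 2 were not tested for outlying samples.

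All 10 genes and WRN are named. Up to 3 called genes with the smallest p are named from each other list and comparison, as are relatives and partners of the 10 and, chosen after their values were seen, the remaining called genes of short lists. Not every called list gene is reported here. Members and lists were chosen with earlier results of these data known.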

Additional observations from a re-analysis of the deposited data

Results flagged for a closer look

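The effect of sgWRN2 differed between the lines by the interaction test for TP53INP1 and CBS, of all genes in the lists used here. TP53INP1, a p53 target that promotes cell death, was at 68.0 and 74.0 CPM with sgCh2-2 and 145 and 134 with sgWRN2 in SW48, and at 267 and 306 against 285 and 220.5 CPM in OVK18. The difference between its effects was 1.156 on the log2 scale (SE 0.20, adjusted p 0.0314). CBS, which makes cystathionine from homocysteine on the way to cysteine, was at 0.320 and 0.108 CPM with sgCh2-2 and 4.36 and 2.93 with sgWRN2 in SW48. In OVK18 it was at 175 and 166 against 135 and 165.5 CPM. The difference between its effects was 4.083 (SE 0.43, adjusted p 0.00149), with SW48 control levels close to 0. None of the 10 genes of the ATF4 set was called by this test.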

How the results depend on the processing

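Over 23 alternatives, 2396 of 2489 log2 differences of the 10 genes had the direction reported and 93 the other; none of the 93 was called. The 10 genes gave these counts of calls where they moved. With sgWRN2 in SW48 the count was 2, and 1 in limma on log2(FPKM + 1), with or without a filter, and on log2(FPKM + 0.1); leaving out 1 library at a time gave 0 to 2. With sgWRN3 in SW48 it was 0, and 1 in DESeq2. With both guides in SW48 it was 1, and 2 without a filter or in DESeq2, 0 with only the libraries of the line, 0 with the replicate block and 0 to 1 with a library left out. With sgWRN2 in OVK18 it was 0, and 2 without a filter and 1 in DESeq2. For sgWRN2 against sgWRN3 in OVK18 it was 0, and 3 without a filter or in DESeq2. Between the lines it was 9, and 6 to 9 with a library left out. The causes were not tested. Where a library was left out, the lone library was assumed to vary like the other groups.

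The labels name no source that the letters share. Among the 10 genes, the replicate block also lost the call of ASNS between the lines (8 calls) and changed no other count of calls. Over all genes it moved the calls from 437 to 265 with sgWRN2 in SW48, from 123 to 28 with both guides in SW48 and from 113 to 38 with sgWRN2 in OVK18. The correlations of A-minus-B differences had the same signs but were smaller with log2(CPM + 0.01), chosen after seeing the data: r 0.203 to 0.266 without sgWRN2, 0.232 between its groups and -0.278 to -0.0447 across. A crossed pairing of the sgWRN2 letters was added after seeing the data. With sgWRN2 it called 5 of the 10 in SW48 (1558 of all genes) and 5 in OVK18 (1801 of all genes). In SW48 it called 2 with sgWRN3 (13 of all genes) and 3 with both guides (683 of all genes). Between the guides it called 1 in SW48 (709 of all genes) and 6 in OVK18 (1790 of all genes). For the sgWRN2 interaction it called 1 (332 of all genes).

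Apart from that pairing, calls over all genes ranged from 148 to 709 with sgWRN2 in SW48, 0 to 22 with sgWRN3 in SW48, 0 to 298 with both guides in SW48, 18 to 439 with sgWRN2 in OVK18, 0 to 9 with sgWRN3 in OVK18 and 0 to 30 with both guides in OVK18. Between the guides they ranged from 3 to 334 in SW48 and 11 to 530 in OVK18, and for the interactions from 15 to 128 with sgWRN2 and 0 to 4 with sgWRN3. CHAC1, at 20 to 171 counts a library, and SLC7A11 in OVK18 had the lowest depth, and their standard errors limit what could be seen.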
